A study of Mus musculus with 6 samples.

Results

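Airway neuroendocrine cells and airway nerves store peptides in dense core vesicles and release them onto epithelium, muscle, glands and immune cells. The gene set has 42 members, chosen by symbol: peptide hormones and neuropeptides outside the neuropeptide Y and tachykinin families, granins, enzymes that process peptides, and markers of neuroendocrine cells. A gene counted as measured where a row of the array table named it alone in the platform annotation, which held for 40 of the 42, and each of the 40 had a single such row. Calca and Pcsk2 were not analysed here. The table held 19938 named genes in all.

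RNA came from larger proximal airways cut by hand from stained frozen lung sections of 9-week-old mice on a mixed C57BL/6 and 129X1 background. The 3 control arrays came from Scgb1a1-Cre mice and the 3 mutant arrays from Scgb1a1-cre:Foxp1flox/flox:Foxp4flox/flox mice, so that both groups carried the driver. The Scgb1a1 promoter is known for club cells of the airway epithelium, and cells without Cre keep both forkhead transcription factor genes. The study also measured lung resistance after methacholine, which was not analysed here, and the comparison of these arrays asks what the loss of Foxp1 and Foxp4 changes in the airway.

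Foxp1 read 9.42, 9.62 and 9.55 in controls and 9.24, 9.34 and 9.31 in mutants on the log2 scale, and Foxp4 read 8.77, 9.01 and 8.95 against 8.41, 7.77 and 8.49. Mutant arrays lay below control arrays for both genes, and neither passed the test (limma adjusted p = 0.444 and 0.339). Which of their exons the probe sets cover was not checked here. The dissected tissue carried its defining markers. Means of the marker lists were 12.03 to 12.16 in controls and 12.17 to 12.29 in mutants for 5 club cell genes, 9.29 to 9.60 in controls and 8.79 to 9.59 in mutants for 5 ciliated cell genes, and 11.14 to 11.49 in controls and 11.05 to 11.48 in mutants for 5 smooth muscle genes. Array medians lay between 5.89 and 5.95 and pairs of arrays correlated at 0.972 to 0.993 across genes. Arrays stood apart within groups: control arrays 1, 2 and 3 averaged 7.02, 10.48 and 10.37 over 5 genes of B and plasma cells, and mutant arrays 6.22, 8.71 and 6.65. The mean of 6 cardiac muscle genes was 11.40, 8.86 and 9.52 against 10.01, 11.13 and 8.65. Endothelial genes, with means of 8.82 to 9.40 in controls and 8.76 to 9.59 in mutants, and thyroid and parathyroid genes, with 4.71 to 5.16 in controls and 5.36 to 5.61 in mutants, had no member past the threshold. Of the thyroid list Tshr read 6.09, 4.87 and 5.42 in controls and 6.96, 8.05 and 7.72 in mutants (limma adjusted p = 0.130), while Tg lay between 4.76 and 5.18.

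A peptide precursor is cut by prohormone convertases, trimmed by carboxypeptidase E and often amidated by PAM, while granins help to form the vesicle. Many of these genes are switched on through cyclic AMP and the factor CREB, whose palindromic site, the cyclic AMP response element, was first described in the somatostatin promoter. Neuroendocrine cells of the lung are rare epithelial cells, marked by INSM1, chromogranin A, synaptophysin and UCHL1, and are known to release calcitonin gene-related peptide, bombesin-like peptide and serotonin.

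Promoter windows of RefSeq (assembly GRCm38.p6, 250 bases before to 50 after a start) were on hand for 32 of the 40 genes. The palindrome TGACGTCA, which reads the same on both strands, stood in a window of 5 of these 32 genes (15.6%), and of 549 of all 27025 genes with a window (2.03%). The 5 stretches below, each 60 bases on the strand of the gene, are shown because Scg2, Chgb, Pcsk1, Cartpt and Sst share this element, which had no part in choosing them. Capitals mark the palindrome.
Scg2: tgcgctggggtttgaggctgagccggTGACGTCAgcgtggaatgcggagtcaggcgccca
Chgb: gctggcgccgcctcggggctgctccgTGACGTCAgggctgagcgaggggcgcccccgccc
Pcsk1: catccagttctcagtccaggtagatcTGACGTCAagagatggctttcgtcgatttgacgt
Cartpt: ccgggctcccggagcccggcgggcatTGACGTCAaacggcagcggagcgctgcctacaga
Sst: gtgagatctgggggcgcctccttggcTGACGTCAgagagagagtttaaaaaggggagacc
These are chr1:79440061-79440120, minus strand (Scg2), chr2:132781544-132781603, plus strand (Chgb), chr13:75089753-75089812, plus strand (Pcsk1), chr13:99900762-99900821, minus strand (Cartpt) and chr16:23890859-23890918, minus strand (Sst). The palindrome begins 68, 72, 78, 112 and 48 bases before the respective start. The 5 genes did not share a direction between mutant and control arrays. Their log2 differences, mutant minus control, were -0.24 for Scg2, -0.06 for Chgb, 0.04 for Pcsk1, 0.26 for Cartpt and 0.16 for Sst.

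The ghrelin gene Ghrl had the largest difference of all members, and as the floxed genes encode forkhead factors its promoter was read for forkhead words after that difference was known. The words searched, on both strands, were the 8 of the form TNTTTNN in which each of the first pair of N is A or G and the last N is C or T. RefSeq lists 4 starts for Ghrl, and the array does not tell which is used. Of the 4 windows 1 held such words, 2 in number, and 27.5% of all windows held at least 1. By gene, 12 of the 32 members with a window held a word (37.5%), against 30.4% of all genes with a window. The 250 bases before the start farthest upstream (chr6:113719912-113720161, minus strand) are shown with the matches in capitals, 126 and 18 bases before the start.
Ghrl: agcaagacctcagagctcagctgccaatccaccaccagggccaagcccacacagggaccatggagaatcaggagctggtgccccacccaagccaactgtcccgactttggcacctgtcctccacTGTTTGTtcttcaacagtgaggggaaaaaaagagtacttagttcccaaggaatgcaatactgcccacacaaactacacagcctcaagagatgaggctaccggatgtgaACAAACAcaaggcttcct
A match is a run of letters, and whether a protein binds there was not measured.

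None of the 40 genes passed the comparison of mutant and control airways. The test was limma's moderated test on log2 values with Benjamini-Hochberg adjusted p-values over the 19938 genes and a threshold of 0.05. It called 53 of all genes (0.266%), 47 higher in mutants (0.236%) and 6 lower (0.0301%). At an unadjusted p under 0.05 there were 3 members, against 10.1% of all genes: Ghrl was higher in mutants (5.9% of all genes) and Gal and Calcb were lower (4.17%). A plain t statistic per gene called none after adjustment. The median log2 difference was 0.01 over the members and 0.02 over all genes, and its median size was 0.08 against 0.10. Of the members, 21 lay above 0 and 19 below, and 54.6% of all genes lay above 0. Every mutant array lay above every control array for 4 members, Ghrl, Cartpt, Sst and Tph1, and for 9.33% of all genes. The reverse held for 0 members and 5.64% of all genes, and groups that did not overlap in either direction made up 15% of all genes. Means at least 1.5-fold apart were found for Ghrl and Calcb alone, and for 4.62% of all genes. In bulk tissue, fewer cells of a type and less RNA per cell cannot be told apart. By contrast Npy, the peptide gene that the series title names, rose by 5.05 in the same fit (limma adjusted p = 0.00670), from 5.88, 5.92 and 6.08 to 11.41, 10.14 and 11.47.

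**Figure D1:**
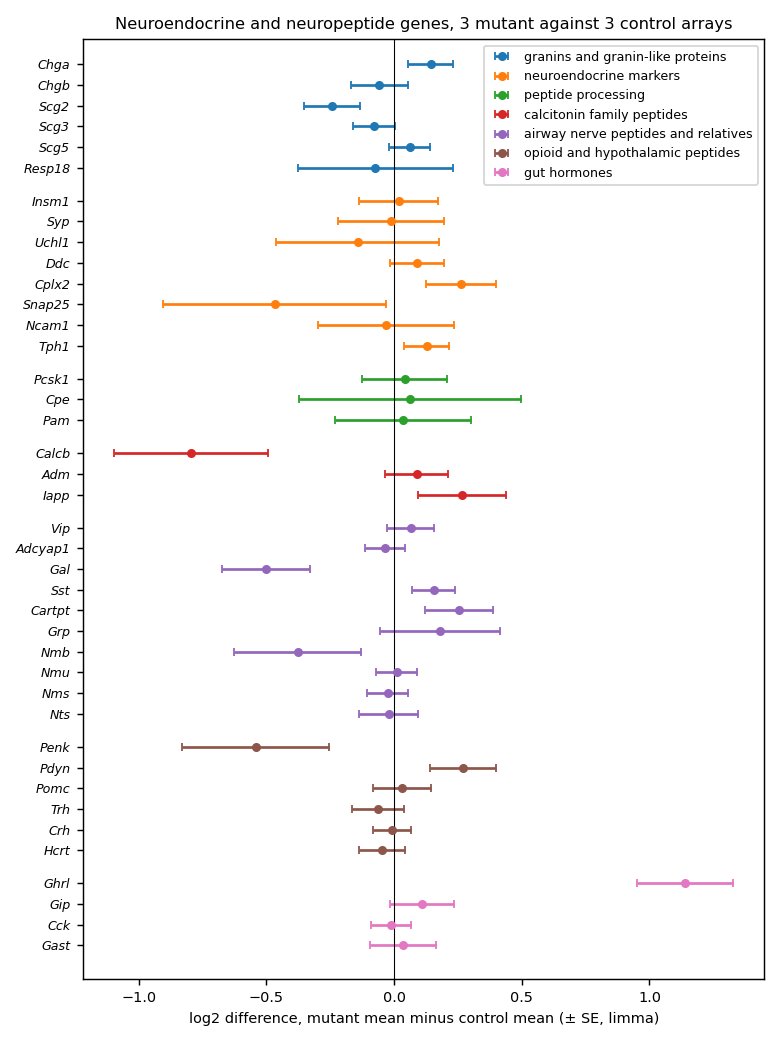
Log2 difference of the mutant mean from the control mean (horizontal axis) for 40 genes grouped by role, with limma's moderated standard error as bars and n = 3 arrays in each group. Ghrl stands farthest to the right at 1.14 and Calcb farthest to the left at -0.79; no gene passed the threshold.

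Many members were dim. The mean of 29 of the 40 (72.5%) lay below the median of all array values, as did that of 40.5% of all named genes, and 5 members, Crh, Nmu, Tph1, Cck and Nts, averaged below the lower quartile (12.5%, against 17.1% of named genes; the quartile was 4.42 to 4.50 by array). Of the 4 markers named above, Chga and Insm1 lay below the array median on all 6 arrays, while Syp and Uchl1 lay above it on 5 of 6. Of the other neuroendocrine markers, Cplx2 lay above it on 6 of 6, Ncam1 on 3, Snap25 on 1, and Ddc and Tph1 on 0. Detection calls were not used here, so no gene could be called present or absent. Apart from this placing against array medians and quartiles, values of different probe sets are not compared with each other.

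Ghrl encodes the precursor of ghrelin, the acylated stomach hormone that stimulates appetite and growth hormone release. Ghrl read 7.26, 7.35 and 7.31 in controls 1 to 3 and 8.02, 8.56 and 8.77 in mutants 1 to 3. The controls lay within 0.1 of each other, and each mutant was higher than each control, with mutant 1 the nearest. Group means were 7.31 ± 0.05 and 8.45 ± 0.38 (SD, n = 3 each), a log2 difference of 1.14 (SE 0.19) or 2.21-fold. It did not pass over all genes (limma adjusted p = 0.107, unadjusted p = 0.000674), and the exact two-sided permutation test gave 0.1, the smallest value it allows for 3 against 3 arrays. Over 18 other settings the difference stayed between 0.98 and 1.35, and it passed in 2: with array weights (1.22, limma adjusted p = 0.0367) and without mutant 1 (1.35, limma adjusted p = 0.0499). Of all genes 291 and 16 passed in these settings, in that order, against 53 in the main fit.

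The other genes of the ghrelin pathway did not pass. Mboat4, the acyltransferase that activates ghrelin, read 4.53, 4.34 and 4.66 in controls and 4.53, 4.33 and 4.50 in mutants. The receptor gene Ghsr read 5.39, 5.29 and 5.62 against 5.68, 5.37 and 5.55. Both overlapped between groups and lay below the array medians. Ghrelin is best known from gastric cells, and of 9 gastric epithelium genes Vsig1, a gastric adhesion molecule, rose (2.46, limma adjusted p = 0.0187). The 8 others, among them the gastrokines, mucin 6 and the proton pump subunits, averaged 4.863 to 4.904 in controls and 4.843 to 4.996 in mutants, between the lower quartile and the median of the arrays. Of these 8, 6 lay above 0 and 2 below, and none passed. Tff1, a trefoil peptide, read 5.34, 5.47 and 5.45 in controls and 6.08, 5.43 and 5.96 in mutants (0.40, limma adjusted p = 0.518), with mutants 1 and 3 above all controls. The gastrokine gene Gkn3 read 5.15, 5.31 and 5.12 against 4.81, 4.88 and 4.80 (-0.36, limma adjusted p = 0.239), with every mutant below every control. The part of gastric-type cells in the Ghrl difference was not tested.

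**Figure D2:**
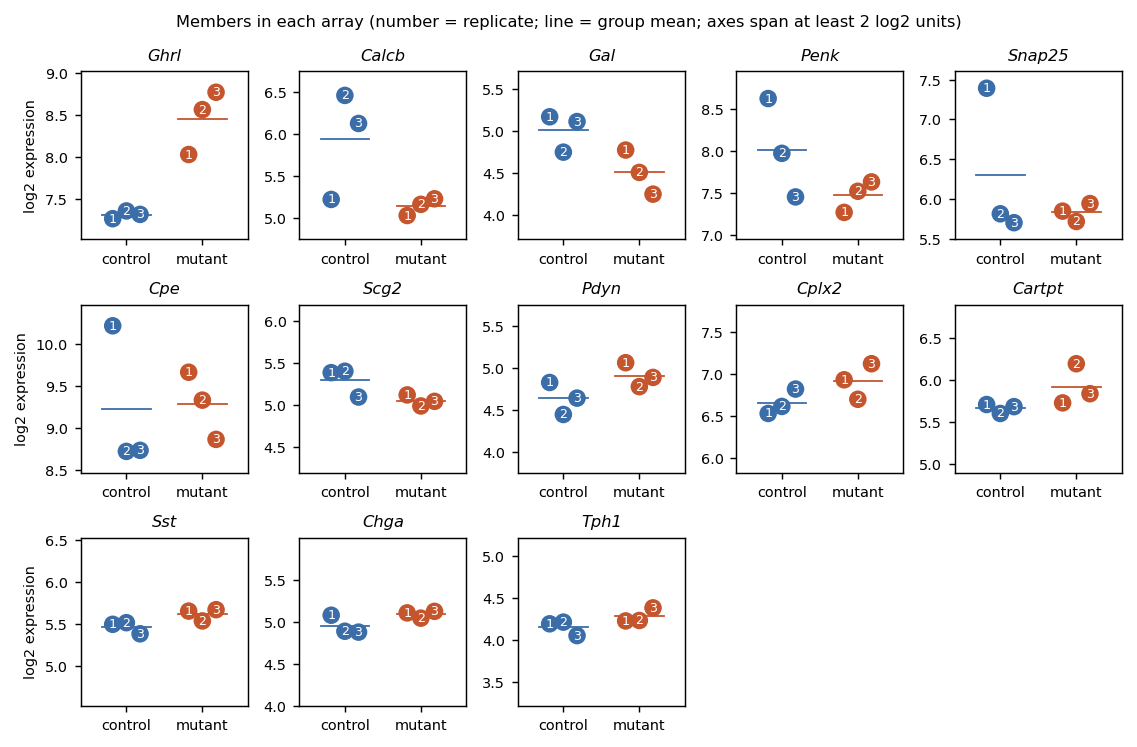
Log2 expression (vertical axes) of 13 members in each of the 6 arrays, with the replicate number in the marker, controls in blue, mutants in orange and a line at each group mean. Ghrl separates the groups with all mutants above 7.35, whereas control 1 is the highest array for Penk, Snap25 and Cpe and the lowest control for Calcb.

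The remaining gut hormone genes gave no separation. Gip, an incretin, had a difference of 0.11, Cck, the gallbladder hormone and brain peptide, of -0.01, and Gast, the stomach acid hormone, of 0.03. Their limma adjusted p values were 0.853, 0.980 and 0.964. Cck was nearly flat, from 4.20 to 4.32 over the 6 arrays, while Gip spanned 5.38 to 5.83 and Gast 5.16 to 5.57. The median of the 4 gut hormone genes was 0.07.

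Granins were close to even in both groups, with a median difference of -0.07 over 6 genes, 2 above 0 and 4 below. Chga encodes chromogranin A, the classic vesicle marker of neuroendocrine cells. It read 5.08, 4.89 and 4.87 in controls and 5.10, 5.04 and 5.12 in mutants, a difference of 0.14 (SE 0.09, limma adjusted p = 0.664). Mutant arrays 1 and 3 were above all controls and mutant 2 lay just below control 1. Scg2, the precursor of secretoneurin, read 5.39, 5.40 and 5.10 against 5.12, 4.99 and 5.04. Its difference of -0.24 (SE 0.11, limma adjusted p = 0.532) had the fourth smallest p of the members, and control 3 lay below mutant 1. Chgb, chromogranin B, differed by -0.06 and ranged from 5.74 to 6.01. Scg3, which binds chromogranin A in the vesicle, differed by -0.08 and Scg5, the chaperone 7B2 of prohormone convertase 2, by 0.06. Resp18, an endocrine-specific protein, varied most of the granin group, from 5.41 to 6.41, with a high array in each group, control 2 at 6.41 and mutant 3 at 6.37, and a difference of -0.07.

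Neuroendocrine markers split evenly, 4 of 8 above 0, with a median of 0.00. Insm1, the transcription factor that marks neuroendocrine cells, read 5.18, 5.54 and 5.35 in controls and 5.20, 5.27 and 5.65 in mutants, with overlapping groups and a difference of 0.02 (SE 0.15). Tph1 and Ddc encode the enzymes that make serotonin. Tph1 read 4.20, 4.22 and 4.06 against 4.23, 4.24 and 4.39; the groups did not overlap, but the gap between control 2 and mutant 1 was under 0.1 (difference 0.13, SE 0.09, limma adjusted p = 0.706). Ddc differed by 0.09 and overlapped. Cplx2, a complexin that controls vesicle fusion, read 6.53, 6.61 and 6.82 against 6.93, 6.70 and 7.12. Its difference was 0.26 (SE 0.14, limma adjusted p = 0.597), and control 3 was above mutant 2. Syp, synaptophysin, ranged from 5.71 to 6.50 with a difference of -0.01, and Ncam1, the adhesion molecule CD56, from 5.59 to 6.55 with -0.03; both were highest in control 1.

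Snap25 had the widest range of all members. It encodes a SNARE protein of vesicle fusion in neurons and endocrine cells. Control 1 read 7.39 and controls 2 and 3 read 5.81 and 5.70, beside 5.84, 5.71 and 5.94 in the mutants. A single array therefore set the difference of -0.47 (SE 0.44, limma adjusted p = 0.813), which became 0.08 without control 1. Uchl1, the neuronal ubiquitin hydrolase PGP9.5, read 7.08, 6.24 and 5.78 against 6.23, 6.03 and 6.42, with a difference of -0.14 that became 0.21 without control 1.

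Of the 3 peptide processing genes measured, Pcsk1, prohormone convertase 1, read 5.34, 5.60 and 5.44 in controls and 5.18, 5.54 and 5.79 in mutants. Cpe, carboxypeptidase E, read 10.22, 8.72 and 8.74 against 9.67, 9.33 and 8.87. Control 1 was again the highest, and all mutants were above controls 2 and 3. Pam, the amidating enzyme and an abundant protein of heart atria, read 10.99, 10.26 and 10.24 against 10.40, 10.95 and 10.24. Control 1 and mutant 2 were its highest. These arrays also had the highest means of the cardiac muscle, adipocyte and endothelial markers. The part of these cell types in the Pam level was not tested. Differences were 0.04, 0.06 and 0.04, with limma adjusted p values of 0.966, 0.981 and 0.981, and that of Cpe became 0.56 without control 1.

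Snap25, Uchl1, Cpe and the proenkephalin gene Penk were each more than 0.5 above all other arrays in control 1, a grouping made after the values were seen. This was so for 4 of 40 members (10%) and for 1.34% of all genes, shares counted for control 1 only. Control 1 and mutant 3 were each the highest array for 11 members (27.5%), against 20.3% and 15.5% of all genes. Control 1 was highest in several marker lists. The cardiac muscle mean was 11.40 in control 1 and 11.13 in mutant 2, and 5 of 6 genes were highest in control 1. Smooth muscle had a mean of 11.49 in control 1 and 11.48 in mutant 1, with 2 of 5 genes highest in control 1. The mean of 6 adipocyte genes was 9.01, 6.40 and 7.03 in controls and 7.05, 7.92 and 6.72 in mutants, and all 6 were highest in control 1. The mean of 5 Schwann cell genes was 8.33, 7.79 and 7.54 against 7.78, 7.43 and 7.45, and 4 of the 5 were highest in control 1, all but Sox10. The mean of 12 neuronal genes was 5.51, 5.01 and 5.21 against 5.28, 5.23 and 5.09. Of these 8 were highest in control 1, among them Stmn2 and Tubb3, while Gap43 was highest in mutant 2, Th in control 3, and Elavl3 and Chat in mutant 1. No marker of these lists passed the test. Their part in the levels of the 4 genes was not tested.

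**Figure D3:**
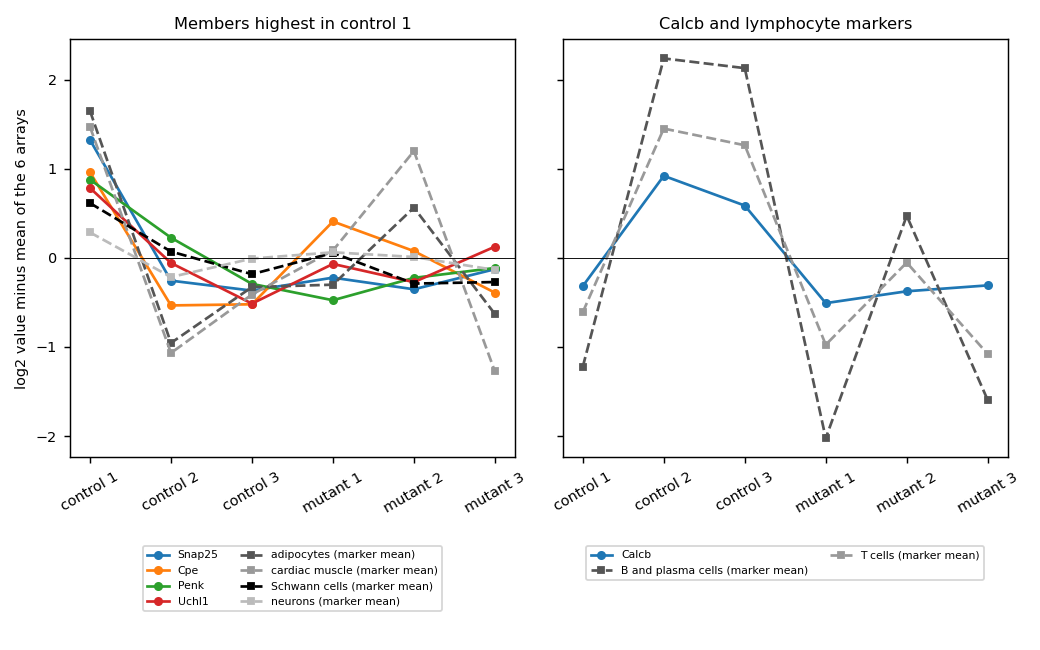
Log2 values minus the mean of the 6 arrays (vertical axis) in each array, for 4 members highest in control 1 beside means of adipocyte, cardiac, Schwann cell and neuronal markers, and for Calcb beside means of lymphocyte markers. Snap25 peaks in control 1, as the adipocyte, cardiac, Schwann cell and neuronal means do. Calcb is high in controls 2 and 3, where the B and T cell means are highest.

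Among calcitonin family genes, Calcb encodes the beta form of calcitonin gene-related peptide, a vasodilator of sensory nerves. The controls read 5.22, 6.46 and 6.12 and the mutants 5.03, 5.16 and 5.23. Controls 2 and 3 stood above all mutants, and control 1 lay within the range of the mutants. The group means were 5.93 ± 0.64 and 5.14 ± 0.10 (SD, n = 3 each), a difference of -0.79 (SE 0.30, limma adjusted p = 0.460; exact two-sided permutation p = 0.2). Without control 1 the difference was -1.15 and passed (limma adjusted p = 0.0228), as it did without control 1 and mutant 2 together (-1.16, limma adjusted p = 0.0138). Of all genes 388 and 963 passed in these settings, against 53 on all arrays. Leaving out controls 2 and 3 gave a Calcb difference of -0.08. Controls 2 and 3 were also the arrays with the highest lymphocyte markers. All 5 B and plasma cell genes were highest in these arrays, as were all 6 T cell genes, whose means were 6.43, 8.50 and 8.31 in controls and 6.07, 6.99 and 5.96 in mutants. Mutant 2 did not follow this order. Its B and plasma cell mean of 8.71 was above the 7.02 of control 1, as was its T cell mean, while its Calcb value of 5.16 was below the 5.22 of control 1. The part of lymphoid tissue in the Calcb level was not tested.

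The other members of the family overlapped between groups. Adm, adrenomedullin, a vascular peptide, differed by 0.09, from a range of 5.92 to 6.30. Iapp, the islet peptide amylin, read 5.60, 5.60 and 5.32 against 5.48, 5.74 and 6.10, a difference of 0.27 (SE 0.17, limma adjusted p = 0.682). Calcrl, the receptor that calcitonin gene-related peptide and adrenomedullin share, read 11.14, 10.59 and 11.09 in controls and 10.94, 11.54 and 10.91 in mutants. Of its partners, Ramp1, which makes it a receptor for calcitonin gene-related peptide, read 8.69, 8.71 and 8.36 against 8.36, 7.99 and 8.09. Each mutant was at or below the lowest control to 2 decimals, with a difference of -0.44 (SE 0.14, limma adjusted p = 0.395). Ramp2 and Ramp3, which make adrenomedullin receptors, differed by -0.08 and -0.16 and overlapped, and Calcr, the calcitonin receptor, differed by -0.06.

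The 10 peptides of airway nerves and their relatives had a median difference of -0.01, with 5 above 0 and 5 below. Gal encodes galanin, a peptide of sensory and autonomic neurons. It read 5.17, 4.75 and 5.11 in controls and 4.77, 4.51 and 4.25 in mutants. Mutants 2 and 3 were below all controls, and mutant 1 was just above control 2. The difference of -0.50 (SE 0.17, limma adjusted p = 0.417; exact two-sided permutation p = 0.2) was below 0 in all 17 other settings, from -0.66 to -0.37, and passed in none. Among galanin receptors, Galr3 read 5.74, 5.61 and 5.67 in controls and 6.20, 5.90 and 6.11 in mutants. It was higher in each mutant array, by 0.40 (SE 0.10), without passing (limma adjusted p = 0.282). Galr1 and Galr2 differed by 0.01 and 0.05.

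Sst, somatostatin, an inhibitory peptide of endocrine cells and neurons, read 5.50, 5.52 and 5.39 in controls and 5.66, 5.54 and 5.67 in mutants. The groups did not overlap, with control 2 and mutant 2 nearest, and the difference was 0.16 (SE 0.08, limma adjusted p = 0.610). Its receptor gene Sstr2 read 5.33, 5.91 and 5.87 against 6.93, 6.57 and 6.54. Each mutant was above each control, a difference of 0.98 (SE 0.19) or 1.97-fold that did not pass (limma adjusted p = 0.170). Without control 1 and mutant 2 the difference was 0.84 and passed (limma adjusted p = 0.0399), in a setting where 963 of all genes passed, against 53 on all arrays. The other somatostatin receptor genes differed by 0.01 (Sstr1), -0.07 (Sstr3), 0.42 (Sstr4) and 0.20 (Sstr5), and none passed. Cartpt, the CART peptide of the brain, gut and autonomic nerves, read 5.71, 5.60 and 5.68 against 5.72, 6.19 and 5.83. Mutant 1 exceeded the highest control by under 0.1 and mutant 2 by more, a difference of 0.26 (SE 0.13, limma adjusted p = 0.598).

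Vip, the relaxing peptide of airway parasympathetic nerves, was nearly even, from 4.72 to 4.96 over the 6 arrays (difference 0.07). Adcyap1, which encodes the related PACAP, ranged from 4.41 to 4.57 (-0.04). Their shared receptor gene Vipr1 read 7.55, 7.03 and 6.75 in controls and 6.38, 6.02 and 6.68 in mutants. Each mutant was below each control, a difference of -0.75 (SE 0.25, limma adjusted p = 0.397) without a pass. The PACAP receptor gene Adcyap1r1 was likewise lower in each mutant (-0.35, limma adjusted p = 0.336), while Vipr2 differed by 0.11. Vipr1 and Adcyap1r1 were singled out after their values were seen. Vipr1 had 2 rows on the array, and the values given are from the row with the higher mean.

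Bombesin-like peptides are the classic product of lung neuroendocrine cells in development. Grp, gastrin-releasing peptide, read 5.38, 5.82 and 5.04 in controls and 5.65, 5.87 and 5.27 in mutants, with overlapping groups and a difference of 0.18 (SE 0.23). Nmb, neuromedin B, read 7.51, 7.25 and 6.87 against 7.16, 6.97 and 6.36. Mutant 3 was below all other arrays and control 1 above, a difference of -0.38 (SE 0.25, limma adjusted p = 0.689). The receptor genes Grpr and Nmbr differed by -0.04 and -0.03. Nmu, a neuronal peptide that activates type 2 innate lymphoid cells, ranged from 3.81 to 4.00 with a difference of 0.01, and its receptor gene Nmur1 differed by -0.09. The related Nms differed by -0.03 and Nts, neurotensin, by -0.02.

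Opioid and hypothalamic peptide genes had a median difference of -0.03, 2 of 6 above 0. Penk, proenkephalin, read 8.63, 7.97 and 7.46 in controls and 7.27, 7.52 and 7.63 in mutants. Control 1 was the highest array, control 3 lay within the mutants, and the difference was -0.54 (SE 0.29, limma adjusted p = 0.606), or -0.24 without control 1. Pdyn, prodynorphin, read 4.83, 4.45 and 4.64 against 5.06, 4.78 and 4.89. Mutants 1 and 3 were above all controls and mutant 2 below control 1, a difference of 0.27 (SE 0.13, limma adjusted p = 0.560). The opioid receptor genes differed by 0.17 (Oprd1), 0.10 (Oprk1) and -0.02 (Oprm1).

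Pomc, the precursor of corticotropin, melanocyte-stimulating hormones and beta-endorphin, ranged from 4.78 to 5.12 and differed by 0.03. Differences were -0.06 for Trh, thyrotropin-releasing hormone, -0.01 for Crh, corticotropin-releasing hormone, and -0.05 for Hcrt, the orexin precursor of the hypothalamus. Crh had the narrowest range of all members, 3.80 to 3.91. Among the 27 members not given array by array under the naming rule, differences lay between -0.38 and 0.27 and limma adjusted p values between 0.682 and 0.992.

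The pathway around these peptides was read from 4 lists of 87 genes, of which 83 were measured, and none passed over all genes. At an unadjusted p under 0.05 there were 6 higher and 6 lower in mutants, 14.5% of the lists against 10.1% of all genes, and a plain t statistic per gene called none after adjustment. Groups did not overlap for 15 genes (18.1%), 8 higher and 7 lower, against 15% of all genes. As the lists were chosen with earlier results of these data known, these shares do not test them. The median difference was 0.01.

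Of 42 receptors and binding proteins, 27 lay above 0 and 15 below, with a median of 0.04. Mc5r, a melanocortin receptor of exocrine glands, differed most. It read 4.48, 4.99 and 4.56 in controls and 5.76, 6.27 and 6.45 in mutants. Each mutant was higher than each control, a difference of 1.48 (SE 0.22, limma adjusted p = 0.0753) or 2.79-fold. It stayed between 1.33 and 1.68 in the other settings and passed with array weights (limma adjusted p = 0.0231) and with an intensity trend (0.0413). Of all genes 291 and 82 passed in these settings, in that order, against 53 in the main fit.

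**Figure D4:**
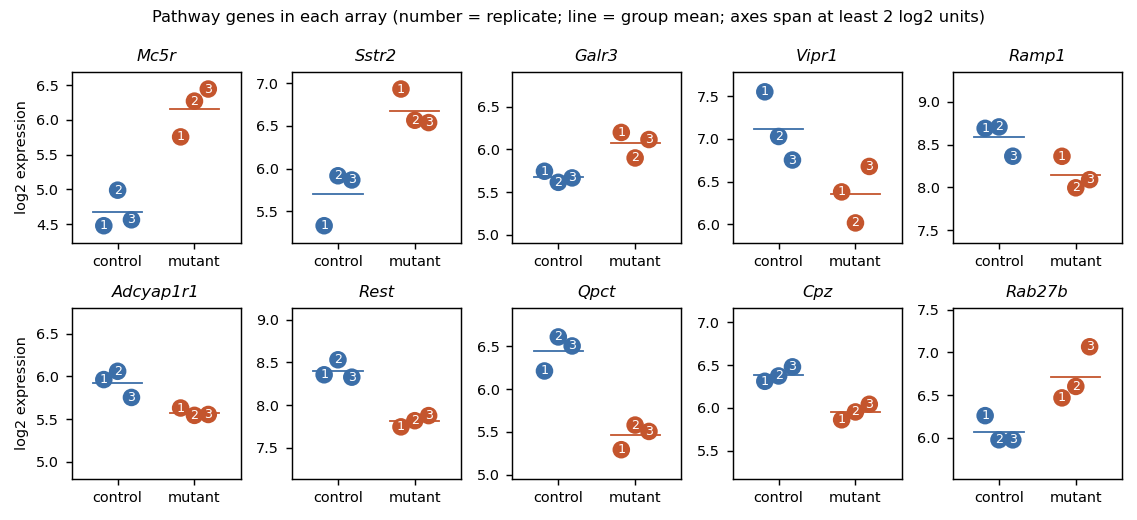
Log2 expression (vertical axes) of 10 pathway genes in each array, with the replicate number in the marker, controls in blue, mutants in orange and a line at each group mean. These are 10 of the 15 pathway genes whose groups do not overlap, 8 higher and 7 lower in mutants. The 15 make up 18.1% of the lists, which were chosen with earlier results of these data known, against 15% of all genes. Of those drawn, Mc5r, Sstr2, Galr3 and Rab27b are higher in mutants and Vipr1, Ramp1, Adcyap1r1, Rest, Qpct and Cpz lower, and none passed over all genes.

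The neuroendocrine transcription factors were dim and overlapped between groups, apart from Rest. Over all 10 genes the median difference was 0.09, against 0.02 over all genes of the table, with 6 above 0 and 4 below. REST represses neuronal and neuroendocrine genes, chromogranin A and synaptophysin among them, in other cell types. Rest read 8.36, 8.53 and 8.33 in controls and 7.75, 7.82 and 7.88 in mutants. Each mutant was below each control, a difference of -0.59 (SE 0.09, limma adjusted p = 0.0837), and it passed with array weights alone (-0.54, limma adjusted p = 0.0365). In that setting 291 of all genes passed, against 53 in the main fit. Neurod2 and Isl1 followed by p, with differences of 0.13 and 0.18 and overlapping groups.

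Of 12 further maturation enzymes 10 lay below 0, with a median of -0.06. Qpct encodes glutaminyl cyclase, which forms the pyroglutamate at the start of peptides such as thyrotropin-releasing hormone and neurotensin. It read 6.21, 6.61 and 6.50 in controls and 5.29, 5.58 and 5.50 in mutants, and the groups lay apart. The difference of -0.98 (SE 0.13, limma adjusted p = 0.0610) passed in 4 of 18 other settings. It did so with array weights (-1.03, limma adjusted p = 0.0102), with the lowest 40% of genes left out (limma adjusted p = 0.0483), without control 1 (-1.10, limma adjusted p = 0.0188) and without control 1 and mutant 2 (-1.16, limma adjusted p = 0.00674). Of all genes 291, 67, 388 and 963 passed in these settings, in that order, against 53 on all arrays. Cpz, carboxypeptidase Z, read 6.31, 6.37 and 6.48 against 5.86, 5.95 and 6.04, a difference of -0.44 (limma adjusted p = 0.185), and Cpd, a carboxypeptidase of the Golgi, differed by 0.22.

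The dense core vesicle and exocytosis list had 8 genes above 0 and 11 below, with a median of -0.04. Rab27b, a GTPase that docks secretory vesicles, read 6.26, 5.98 and 5.98 in controls and 6.47, 6.60 and 7.07 in mutants, each mutant above each control (difference 0.64, SE 0.17, limma adjusted p = 0.306). Ptprn2, a vesicle membrane protein also called phogrin, read 6.59, 6.54 and 5.96 against 6.99, 6.62 and 7.04 (0.52, limma adjusted p = 0.473). These groups did not overlap, though control 1 and mutant 2 were almost equal. Syt7, a calcium sensor of exocytosis, differed by 0.31 with overlapping groups.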

How the data were processed

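The data are 6 Affymetrix mouse gene arrays of airway RNA, 3 control and 3 mutant. Each of the 35556 deposited rows holds a probe set's log2 level on every array. RMA, oligo and limma were used, per the submitters' processing notes, while versions and genome build were not given in the sources used here. The method equalises array distributions and shrinks differences at dim probe sets. Without scan dates no batch was tested. Samples are not stated to be separate mice, so the tests reflect the spread between these arrays, which may be technical, and precision is limited by their number.

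Rows with exactly 1 gene symbol in the platform annotation were kept (21789), with the highest-mean row per gene. Mutants were compared with controls in limma 3.58.1 (R 4.3.3; lmFit, eBayes, genotype only, no filter), two-sided, with Benjamini-Hochberg adjustment over 19938 genes; the fit was tested on simulated data. Standard errors are limma's moderated ones. Members given array by array had non-overlapping groups, a difference of at least 0.58, 1 of the 10 smallest p values or 1 of the 5 widest ranges. Insm1, Uchl1, Pcsk1, Pam, Iapp, Grp and Nmb were added with their values in view. Pathway genes named were up to 3 of each list by p and the receptors of these members; Mboat4, Calcr, Vipr1, Vipr2, Adcyap1r1, Grpr, Nmbr and Nmur1 were added with their values known. The members and lists were chosen with earlier results of these data known. Among the alternatives were renewed quantile normalisation or centring on array medians, a filter on the lowest 40%, array weights, a replicate block, the average of all rows of a gene, every row, an intensity trend, robust eBayes, a plain t statistic, and leaving out arrays. Promoter words were searched in Python 3.11.15.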

Additional observations from a re-analysis of the deposited data

How the results depend on the processing

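The count of members past the threshold, 0 on all arrays, was 1 with array weights (Ghrl) and 1 without control 1 and mutant 2 (Calcb), and 3 genes had an unadjusted p under 0.05. Leaving out 1 array at a time gave 0 to 1 members, Calcb without control 1 and Ghrl without mutant 1. The count of pathway genes, also 0, was 3 with array weights (Mc5r, Rest and Qpct), 1 with the lowest 40% of genes left out (Qpct), 1 with an intensity trend (Mc5r), 2 without control 1 and mutant 2 (Sstr2 and Qpct), and 0 to 1 with single arrays left out (Qpct without control 1). The filter kept 14 of the 40 members. The median difference of members was 0.014 and ranged from -0.013 to 0.066 with single arrays left out, the latter without control 1. The count over all genes, 53, was 291 with array weights, 82 with an intensity trend, 0 with a plain t statistic, 963 without control 1 and mutant 2, 0 without controls 2 and 3, and with single arrays left out 9 (without control 2) to 388 (without control 1). Of 694 pairs of a member and a setting, 4 moved a member past the threshold. The sign of the difference changed in at least 1 setting for 26 of the 40 members and in none for 14. With the replicate number as a block, 0 members, 0 pathway genes and 0 of all genes passed, against 53 genes without it. Deviations of same-numbered arrays correlated at 0.14, -0.09 and -0.04. Control 1 correlated best with mutant 1 (0.14), control 2 with mutant 3 (0.15) and control 3 with mutant 2 (0.18). With 3 arrays per group, values this weak cannot settle whether the numbers pair the samples. The low signal of many members and the 3 arrays per group limit what could be detected.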
